A study of Homo sapiens with 12 samples.

Results

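The effect of IWP2 on Day 16 was taken from 4 RNA-seq libraries of passaged cells, out of 12 libraries in all. The samples were chosen by their labels: P-IWP2 replicates 5 and 6 against P-DF replicates 3 and 4. All came from wild type H1 human embryonic stem cells that were first directed to mesendoderm and were dissociated and re-plated on Day 2 of differentiation. P-DF cells then continued in DF medium without IWP2, and P-IWP2 cells received IWP2 from Day 2 to Day 4, so that IWP2 was the labelled difference between the groups. As the study describes, passaged cells of both groups also received a ROCK inhibitor, which limits cell death after dissociation. NP-IWP2 cells, in static culture with IWP2, and the Day 12 libraries of the same treatments are given only for comparison. The labels do not say whether libraries of a group came from separate cultures, so p-values measure the spread between these libraries, which may be technical, and all cells came from 1 cell line.

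IWP2 inhibits Porcupine, the enzyme that adds the lipid that WNT ligands need for their secretion. Secreted WNTs bind Frizzled receptors, β-catenin then enters the nucleus, and TCF/LEF factors switch on target genes such as AXIN2 and LEF1. In cardiac differentiation WNT activity first makes mesendoderm, and its inhibition a few days later directs these cells to the heart lineage. Cardiomyocytes then take on chamber identities: ventricular cells use genes such as MYL2, IRX4 and HEY2, and atrial cells genes such as MYL7, NPPA and MYH6.

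Both groups held the RNA of cardiomyocytes. MYH7, the slow myosin heavy chain, was at 2613 and 2340 FPKM in P-DF and at 2637 and 2318 FPKM in P-IWP2 replicates 5 and 6. TNNT2, cardiac troponin T, was at 106 and 78.7 FPKM in P-DF and at 101 and 84.6 FPKM in P-IWP2. NKX2-5, the cardiac homeobox factor, was at 117 and 119 FPKM in P-DF and at 117 and 115 FPKM in P-IWP2. The 2 groups overlapped in MYH7, TNNT2 and NKX2-5. Of the defining genes of other cells, CDX2 and NANOG had 0 counts in all 4 libraries. PECAM1, CDH5, AFP, AHSG, DCN, NT5E and POU5F1 each had between 1 and 16 counts over the 4 libraries together. Too few counts were left for a test of these genes.

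The 4 libraries held between 16101298 and 19176239 counts, of which 13.5% to 15.8% came from the mitochondrial genome. Libraries of a group were not equally close. Between 2 libraries, the mean chi-square per gene over genes with at least 20 counts was 7.61 for the P-DF pair and 30.2 for the P-IWP2 pair, where sampling noise alone gives about 1. P-IWP2 replicate 5 was nearer to the P-DF libraries, at 14.7 and 15.7, than to replicate 6. P-IWP2 replicate 6 was at 42.5 and 52.6 from the P-DF libraries. On Day 12 the order was different: the library labelled P-IWP2 replicate 6 was at 3.07 from P-DF replicate 3, closer than the P-DF libraries were to each other at 10.4, and the library labelled P-IWP2 replicate 5 stood at 131 to 137 from the other passaged libraries. Whether the Day 12 P-IWP2 libraries carry the right labels cannot be told from the files, so every Day 12 value is given by label. Results are therefore given per library, and with and without these libraries where they bear on a value.

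**Figure D1:**
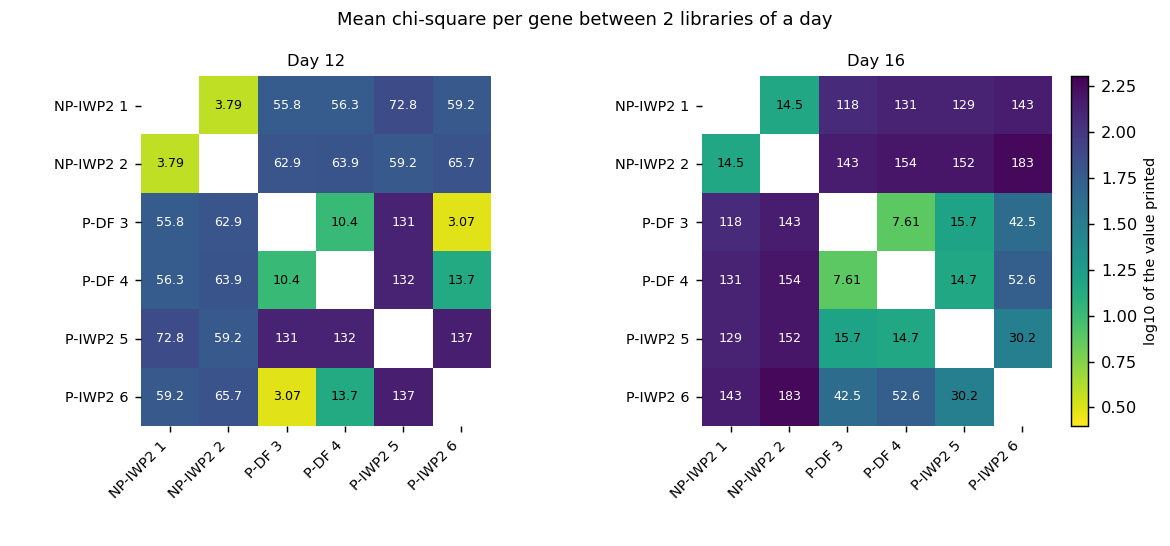
Mean chi-square per gene between each pair of libraries of a day (numbers in the cells, with colour showing their log10). On Day 16, P-IWP2 replicate 5 lies nearer to P-DF (14.7 and 15.7) than to P-IWP2 replicate 6 (30.2), and on Day 12 the library labelled P-IWP2 replicate 5 lies apart from the other passaged libraries (131 to 137).

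A small set of genes differed between passaged cells with and without IWP2 on Day 16. Of 16249 genes tested, 144 (0.886%) were higher and 109 (0.671%) lower in P-IWP2 (edgeR quasi-likelihood test, Benjamini-Hochberg adjusted p under 0.05), 1.56% of all genes tested. Genes lower in P-IWP2 included IRX transcription factors and other genes of the ventricle, and genes higher in P-IWP2 included NPPA, S100A10 and CBLN2. The median change was 1.16 on the log2 scale over the genes that rose and -1.08 over the genes that fell, and 0.0015 over all genes tested. In all 253 called genes the libraries of the groups did not overlap, as was the case for 46.0% of all genes tested (22.5% with P-IWP2 higher and 23.4% with P-IWP2 lower). P-IWP2 replicate 6 was further from P-DF than replicate 5 in 122 of the 144 rises and 95 of the 109 falls, against 64.7% of all genes tested.

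A fit with 1 library left out has 1 sample in that group and takes its spread from the other group alone. The P-DF pair was closer (mean chi-square 7.61 per gene) than the P-IWP2 pair (30.2). Fits without a P-IWP2 library thus rest on the closer pair, so a larger count was largely fixed in advance. Keeping a call in them was no separate test, and fits without a P-DF library rest on the wider pair. The count of calls depended on the libraries in the fit. It was 949 without P-IWP2 replicate 6 (5.54% of the genes tested), 3672 without P-IWP2 replicate 5 (21.5%), 165 without P-DF replicate 4 (0.959%) and 77 without P-DF replicate 3 (0.449%), and 67 of the 253 genes were called in all 4 of these fits. No gene was called with limma on log2(FPKM + 1), where 2067 genes had an unadjusted p under 0.05, or in a fit of all 12 libraries that includes replicate 5 of P-IWP2 on Day 12 (1567 genes), while the fit of the other 11 libraries called 510 (2.49%). DESeq2 called 458 (2.82%), edgeR with library totals in place of TMM 138 (0.849%), without its filter on low counts 1144 of 32366 (3.53%) and with the 6 Day 16 libraries 341 (1.9%). All 253 genes kept their direction in each of these fits. This was largely fixed in advance, since the fits share libraries and the groups of these genes did not overlap. Counts of called genes in the lists that follow stand against 0.886% of all genes tested called higher and 0.671% called lower.

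**Figure D2:**
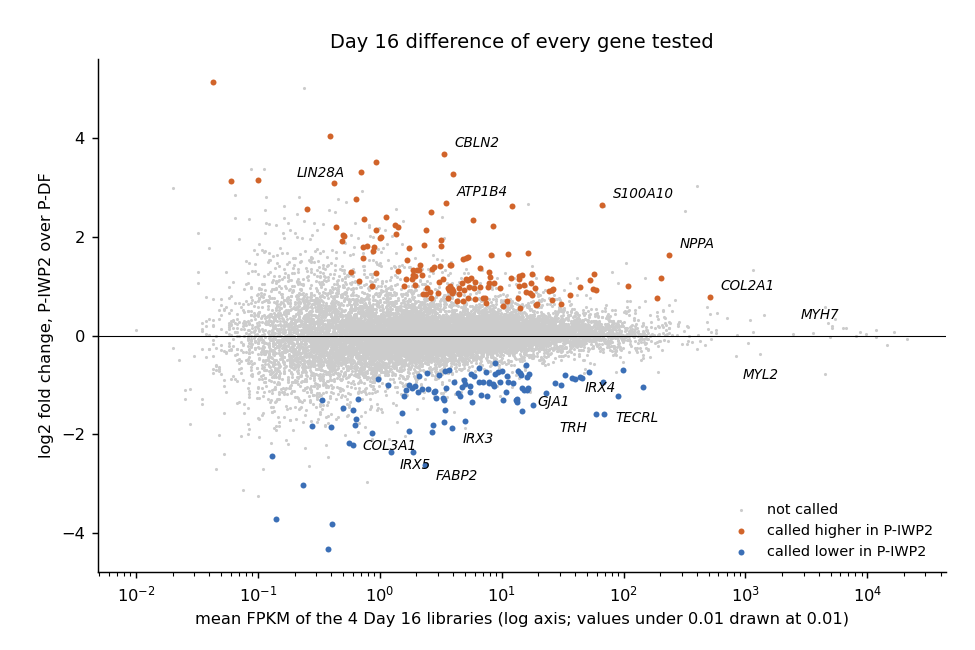
Log2 fold change of P-IWP2 over P-DF on Day 16 against the mean FPKM of the 4 libraries, one point per gene tested. The 144 genes called higher are orange and the 109 called lower are blue. MYH7 and MYL2, which were not called, lie at 0.04 and -0.37 at high expression.

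Most genes of the ventricular list were lower in P-IWP2. Of 12 genes on the ventricular list, 11 were tested, 7 fell (63.6%, against 0.671% of all genes tested), 0 rose, and the median log2 fold change was -0.89. The 7 were IRX3, IRX4 and IRX5, homeobox transcription factors, HEY2, a Notch target that represses atrial genes, GJA1, the gap junction protein connexin 43, CORIN, the protease that activates natriuretic peptides, and FHL2, a LIM-domain protein of the sarcomere. Since the libraries are of bulk cells, fewer cells of a type and less RNA per cell cannot be told apart. The 7 became 4 without P-DF replicate 3, 4 with library totals and 5 with DESeq2, and 0 with limma and with all 12 libraries.

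GJA1 was at 21.7 and 22.4 FPKM in P-DF replicates 3 and 4 and at 10.7 and 9.23 FPKM in P-IWP2 replicates 5 and 6. The log2 fold change was -1.10 ± 0.12 (SE, n = 2 libraries per group, edgeR adjusted p = 0.0048), with both P-IWP2 libraries close together and well below P-DF. IRX4 was at 51.3 and 46.5 FPKM in P-DF and at 31.5 and 21.4 FPKM in P-IWP2, a log2 fold change of -0.85 ± 0.15 (SE, n = 2, edgeR adjusted p = 0.030). HEY2 was at 19.8 and 18.6 FPKM in P-DF and at 10.3 and 4.6 FPKM in P-IWP2, where replicate 6 was the lower of the pair (log2 fold change -1.34 ± 0.27, SE, n = 2, edgeR adjusted p = 0.043). CORIN was at 26.3 and 26.1 FPKM in P-DF and at 13.2 and 6.24 FPKM in P-IWP2, again with replicate 6 lowest. FHL2 was at 51.1 and 53.4 FPKM in P-DF and at 31.6 and 23.5 FPKM in P-IWP2. Without P-DF replicate 3, IRX4 (edgeR adjusted p = 0.15), HEY2 (0.064) and FHL2 (0.077) were no longer called, and FHL2 was also lost without P-DF replicate 4 (0.083). DESeq2 did not call HEY2 (adjusted p = 0.15) or CORIN (0.076), and edgeR with library totals called neither HEY2 (0.088), CORIN (0.067) nor IRX4 (0.064). In these genes the lowest P-DF library was above the highest P-IWP2 library, as in all called falls and 23.4% of all genes tested.

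The most abundant ventricular genes did not pass the test. MYL2, the ventricular regulatory light chain, was at 1662 and 1360 FPKM in P-DF and at 1147 and 1121 FPKM in P-IWP2. The groups of MYL2 did not overlap, but the log2 fold change of -0.37 (95% interval -0.72 to -0.02) had an edgeR adjusted p of 0.32. MYH7 differed by 0.04 on the log2 scale (95% interval -0.34 to 0.42). MPPED2 was at 9.68 and 9.25 FPKM in P-DF and at 7.46 and 6.67 FPKM in P-IWP2, and LBH, a cardiac transcription cofactor, was at 53.7 and 52.4 FPKM in P-DF and at 62.3 and 61.5 FPKM in P-IWP2. KCNJ2, the inward rectifier channel, had only 11 counts over the 4 libraries and was not tested.

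**Figure D3:**
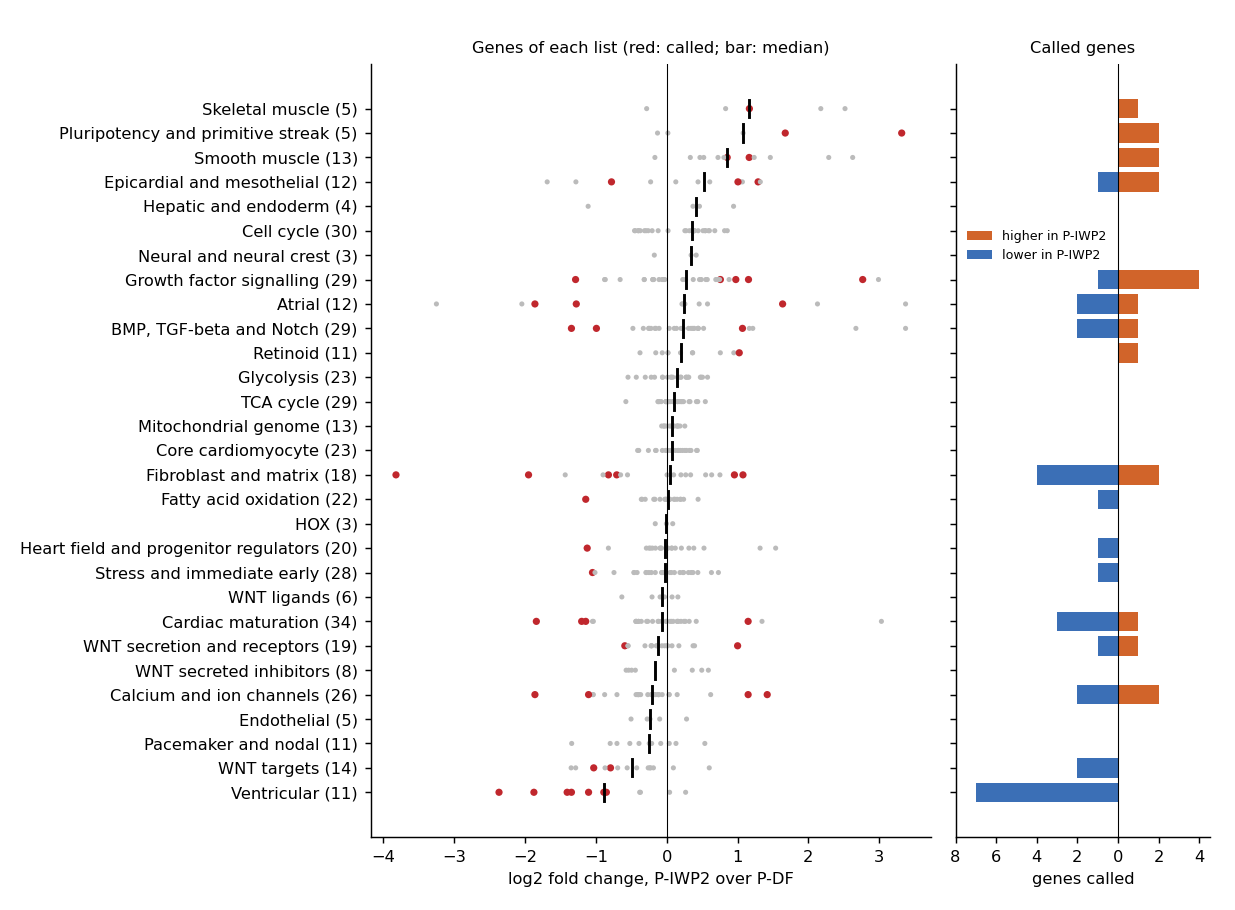
Left, log2 fold change of P-IWP2 over P-DF for each gene tested of 29 gene lists (number tested in brackets, red for called genes, black bar for the median of the list). Right, the number of genes of each list called lower (left of 0) or higher (right of 0). The ventricular list, at the foot, has 7 genes called lower and a median of -0.89.

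IRX genes lie in 2 clusters of the genome, and members of both were lower. IRX1 and the neighbours of the clusters were added here after their values were seen. On chromosome 16 (hg38), IRX3 (ENSG00000177508, 54283304 to 54286787) was at 6.98 and 5.41 FPKM in P-DF and at 1.9 and 1.39 FPKM in P-IWP2, a 3.67-fold lower level in the fit. Its log2 fold change was -1.87 ± 0.21 (SE, n = 2, edgeR adjusted p = 0.0058). IRX5 (ENSG00000176842, 54930865 to 54934485) was at 2.21 and 1.93 FPKM in P-DF and at 0.41 and 0.37 FPKM in P-IWP2, with a log2 fold change of -2.37 ± 0.29 (SE, n = 2, edgeR adjusted p = 0.0084). CRNDE, a noncoding RNA whose gene lies next to IRX5, fell as well, from 3.25 and 2.99 FPKM in P-DF to 1.97 and 1.63 FPKM in P-IWP2. Its call was lost without P-DF replicate 3 and without P-DF replicate 4.

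On chromosome 5, IRX2 (ENSG00000170561, 2745845 to 2751677) was at 5.85 and 4.51 FPKM in P-DF and at 1.72 and 1.26 FPKM in P-IWP2, with a log2 fold change of -1.76 ± 0.21 (SE, n = 2, edgeR adjusted p = 0.0084). IRX1 was at 1.25 and 1.23 FPKM in P-DF and at 0.48 and 0.38 FPKM in P-IWP2, and its log2 fold change of -1.49 did not pass the test (edgeR adjusted p = 0.085). Within 500000 bases of the IRX4 to IRX1 cluster, 15 genes were tested, and IRX4 and IRX2 were called (13.3%, against 1.56% of all genes tested). The median log2 fold change of the 15 was -0.57, and 2 were above 0. NDUFS6, next to IRX4, was the highest at 0.04. C5orf38, next to IRX2, was the lowest at -1.95 and was not called (edgeR adjusted p = 0.12). Within the same distance of the IRX3 to IRX6 cluster, 6 genes were tested and 3 were called (against 1.56% of all genes tested). IRX6 itself, with 21 counts over the 4 libraries, was not tested. Both windows were chosen after the values were seen. MMP2 and LPCAT2, on the far side of IRX5, had log2 fold changes of 0.65 and 0.67 and were not called. They were the 2 genes above 0 of the 6 in their window, whose median was -0.45. Reads of IRX4 and of its antisense gene IRX4-AS1 (-0.59, not called) cannot be told apart where they overlap if the counting ignored strand, which is not given in the sources used here.

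**Figure D4:**
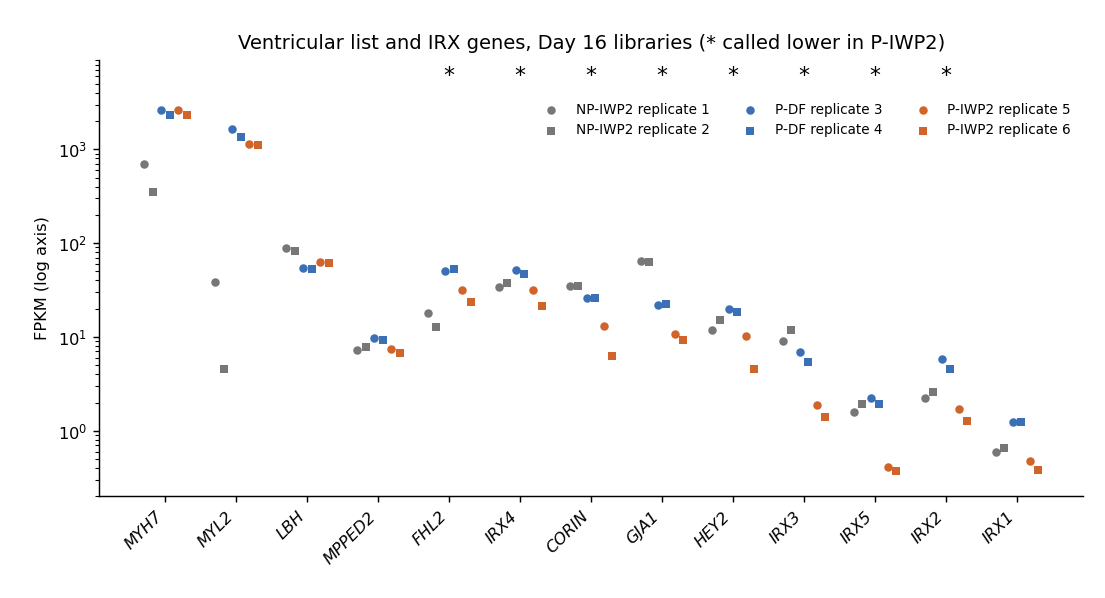
FPKM (log axis) of the ventricular genes tested and of IRX2 and IRX1 in the 6 Day 16 libraries. Points are single libraries, and asterisks mark genes called lower in P-IWP2 (orange) than in P-DF (blue), with NP-IWP2 in grey. IRX3, IRX5 and IRX2 are lower in both P-IWP2 libraries than in both P-DF libraries, and MYH7 overlaps.

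The promoters of genes that fell were searched for the TCF/LEF motif, since TCF/LEF factors carry WNT signaling to DNA. The sequences are from RefSeq (GRCh38.p14) and hold 250 bases before to 50 bases after the start of the gene, written 5′ to 3′ on its strand. CTTTGAA and CTTTGAT were searched on both strands. The motif was found in 3 of 79 promoters of genes that fell (3.80%), in 2 of 95 of genes that rose (2.11%), in 462 of 11385 of genes tested (4.06%) and in 1906 of all 27305 promoters (6.98%). Shown are 3 of the ventricular genes that fell, at chr4:47838018-47838317 (minus strand, CORIN), chr6:121435396-121435695 (plus strand, GJA1) and chr5:1886896-1887195 (minus strand, IRX4), and MYCN, at chr2:15940300-15940599 (plus strand). Capitals mark a match to the motif, which begins at base -148 from the start of CORIN and at base -10 of MYCN, where it lies on the other strand.
CORIN: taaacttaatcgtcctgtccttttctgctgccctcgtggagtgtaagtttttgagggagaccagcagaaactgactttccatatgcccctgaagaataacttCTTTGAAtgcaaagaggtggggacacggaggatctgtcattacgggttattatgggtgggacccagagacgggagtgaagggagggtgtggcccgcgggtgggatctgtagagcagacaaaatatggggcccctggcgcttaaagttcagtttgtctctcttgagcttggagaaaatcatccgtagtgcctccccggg
GJA1: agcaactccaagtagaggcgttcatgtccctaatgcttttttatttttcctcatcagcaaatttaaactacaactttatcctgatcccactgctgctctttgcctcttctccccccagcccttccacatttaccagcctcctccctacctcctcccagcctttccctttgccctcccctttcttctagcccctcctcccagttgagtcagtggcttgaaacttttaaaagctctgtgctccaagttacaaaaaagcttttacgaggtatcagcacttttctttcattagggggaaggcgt
IRX4: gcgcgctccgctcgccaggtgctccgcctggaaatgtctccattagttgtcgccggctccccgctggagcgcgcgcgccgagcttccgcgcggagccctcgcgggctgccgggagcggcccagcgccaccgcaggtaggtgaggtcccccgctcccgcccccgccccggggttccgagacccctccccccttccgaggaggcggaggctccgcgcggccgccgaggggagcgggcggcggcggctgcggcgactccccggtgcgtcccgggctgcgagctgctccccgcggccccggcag
MYCN: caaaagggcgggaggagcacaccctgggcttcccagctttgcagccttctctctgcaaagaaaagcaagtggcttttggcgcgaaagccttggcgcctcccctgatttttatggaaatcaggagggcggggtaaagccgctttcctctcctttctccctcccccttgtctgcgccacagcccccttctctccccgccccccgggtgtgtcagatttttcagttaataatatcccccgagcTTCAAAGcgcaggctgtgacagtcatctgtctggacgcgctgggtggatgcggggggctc
GJA1 and IRX4 hold no match in this window. MYCN, a growth-promoting transcription factor, was at 32.5 and 31.3 FPKM in P-DF and at 15.0 and 12.9 FPKM in P-IWP2 (log2 fold change -1.15 ± 0.11, SE, n = 2, edgeR adjusted p = 0.0036), so that genes with and without a match fell. A match is a run of letters and was not measured as a bound site.

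The core contractile genes showed no call. Of 23 genes of the cardiomyocyte list, all were tested, 0 were called by edgeR (2 had an unadjusted p under 0.05), and the median log2 fold change was 0.08. ACTC1, cardiac α-actin, was at 5578 and 4201 FPKM in P-DF and at 4104 and 7794 FPKM in P-IWP2, so that P-IWP2 replicate 5 was below and replicate 6 above both P-DF libraries. MYL4, the atrial essential light chain, was at 1323 and 1154 FPKM in P-DF and at 1441 and 1766 FPKM in P-IWP2, and was not called.

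In the atrial list 1 gene rose and 2 fell. Of 14 genes, 12 were tested, NPPA rose (8.33% of those tested, against 0.886% of all genes), and TBX5 and CACNA1G fell (16.7%, against 0.671%), and the list had a median log2 fold change of 0.24. NPPA, which encodes atrial natriuretic peptide, was at 118 FPKM in both P-DF libraries and at 239 and 465 FPKM in P-IWP2, a log2 fold change of 1.64 ± 0.28 (SE, n = 2, edgeR adjusted p = 0.023). Both P-IWP2 libraries were above P-DF, and replicate 6 was the higher. NPPA was not called in the fit of 6 Day 16 libraries (edgeR adjusted p = 0.10) or of 11 libraries (0.13). TBX5, a T-box factor of the atria and left ventricle, was at 20.2 and 17.7 FPKM in P-DF and at 9.45 and 5.87 FPKM in P-IWP2 (log2 fold change -1.28 ± 0.18, SE, n = 2, edgeR adjusted p = 0.012). CACNA1G, a T-type calcium channel, was at 0.67 and 0.57 FPKM in P-DF and at 0.24 and 0.10 FPKM in P-IWP2, and was not called without P-DF replicate 3 (edgeR adjusted p = 0.13).

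Other atrial genes were not called. MYL7, the atrial regulatory light chain, was at 3740 and 3646 FPKM in P-DF and at 5313 and 5369 FPKM in P-IWP2, and its log2 fold change of 0.58 (95% interval 0.22 to 0.93) had an edgeR adjusted p of 0.12. MYH6, the fast myosin heavy chain, was at 109 and 71.0 FPKM in P-DF and at 91.3 and 146 FPKM in P-IWP2, so the groups overlapped. MYH6 and MYH7 are near-identical in long stretches, and how reads that match both were counted is not given in the sources used here. NPPB, B-type natriuretic peptide, was at 94.9 and 87.7 FPKM in P-DF and at 172 and 1238 FPKM in P-IWP2. Both P-IWP2 libraries of NPPB were above P-DF and far apart from each other, and the log2 fold change of 3.03 ± 0.70 (SE, n = 2) did not pass the test (edgeR adjusted p = 0.070).

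Of 36 genes of cardiac maturation, 34 were tested, 1 rose (2.94%, against 0.886% of all genes), 3 fell (8.82%, against 0.671%) and the median was -0.06. CASQ2, the calcium store protein of the sarcoplasmic reticulum, was at 15.8 and 16.5 FPKM in P-DF and at 26.7 and 42.3 FPKM in P-IWP2. LMOD3, an actin nucleator, was at 9.84 and 9.05 FPKM in P-DF and at 5.16 and 2.89 FPKM in P-IWP2, and CD36, the fatty acid translocase, was at 2.62 and 3.05 FPKM in P-DF and at 1.57 and 0.94 FPKM in P-IWP2. MYOM2, an M-band protein, was low throughout, at 0.48 and 0.40 FPKM in P-DF and at 0.13 and 0.11 FPKM in P-IWP2. Of 26 tested genes of calcium handling and ion channels, CASQ2 and KCNIP2, a subunit of the transient outward potassium channel, rose, and GJA1 and CACNA1G fell. KCNIP2 was at 2.3 and 1.93 FPKM in P-DF and at 6.92 and 4.14 FPKM in P-IWP2. With P-DF replicate 3 left out, CASQ2 (edgeR adjusted p = 0.087), LMOD3 (0.063) and MYOM2 (0.30) were not called, and without P-DF replicate 4, CD36 (0.091), MYOM2 (0.11) and KCNIP2 (0.051) were not. Of 11 tested pacemaker genes 0 were called by edgeR (3 had an unadjusted p under 0.05), and HCN4, the pacemaker channel, was at 26.3 and 23.6 FPKM in P-DF and at 20.3 and 21.5 FPKM in P-IWP2.

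The WNT pathway itself was compared 12 days after IWP2 was removed. Of 24 WNT target genes, 14 were tested, 2 fell (14.3%, against 0.671% of all genes), 0 rose, and 12 of the 14 had a log2 fold change below 0, with a median of -0.49, where 8166 of all 16249 genes tested were above 0. CCND1, cyclin D1, was at 42.8 and 42.1 FPKM in P-DF and at 26.7 and 21.0 FPKM in P-IWP2, a log2 fold change of -0.79 ± 0.13 (SE, n = 2, edgeR adjusted p = 0.019). MSX2, a homeobox repressor, was at 7.04 and 7.84 FPKM in P-DF and at 3.81 and 3.28 FPKM in P-IWP2 (log2 fold change -1.03 ± 0.17, SE, n = 2, edgeR adjusted p = 0.023). In CCND1 and MSX2 both P-IWP2 libraries were below both P-DF libraries, as in all called falls and 23.4% of all genes tested. Without P-DF replicate 3, the log2 fold change was -0.79 for CCND1 and -1.11 for MSX2. Without P-DF replicate 4 it was -0.80 and -0.94, and neither gene kept its call in these fits. CCND1 was not called with 11 libraries (edgeR adjusted p = 0.25).

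Other WNT targets were not called. AXIN2, a negative feedback regulator, was at 2.62 and 2.31 FPKM in P-DF and at 2.22 and 1.98 FPKM in P-IWP2, with a log2 fold change of -0.19 (95% interval -0.57 to 0.20). LEF1, a TCF/LEF factor and itself a target, was at 5.50 and 5.99 FPKM in P-DF and at 4.65 and 3.70 FPKM in P-IWP2, with a log2 fold change of -0.42 (95% interval -0.75 to -0.10, edgeR adjusted p = 0.21). ZNRF3, a ligase that removes Frizzled receptors, was at 4.52 and 4.35 FPKM in P-DF and at 3.71 and 3.65 FPKM in P-IWP2. NKD1 was at 0.04 FPKM or less in all 4 libraries, RNF43 was at 0.24 FPKM or less, and SP5 had 0 counts.

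Of 19 WNT ligands 6 were tested and 0 were called by edgeR (0 had an unadjusted p under 0.05). WNT5A, a noncanonical ligand, was at 13.2 FPKM in both P-DF libraries and at 12.1 and 10.1 FPKM in P-IWP2, and WNT5B was at 9.55 and 9.02 FPKM in P-DF and at 10.8 and 9.31 FPKM in P-IWP2. PORCN, which encodes the target of IWP2, was at 1.40 and 1.44 FPKM in P-DF and at 1.48 and 1.31 FPKM in P-IWP2. Among 19 tested genes of WNT secretion and receptors, RSPO3, a secreted amplifier of WNT signaling, rose from 9.47 and 9.13 FPKM in P-DF to 22.1 and 14.3 FPKM in P-IWP2. FZD1, a Frizzled receptor, fell from 19.2 and 19.3 FPKM in P-DF to 13.5 and 11.4 FPKM in P-IWP2. Neither was called without P-DF replicate 3 (edgeR adjusted p = 0.072 for RSPO3 and 0.33 for FZD1), without P-DF replicate 4 (0.051 and 0.29) or with library totals (0.063 and 0.054). Of 8 tested secreted inhibitors 0 were called by edgeR, but 6 had an unadjusted p under 0.05, against 2325 of all 16249 genes tested. In 3 of the 8 both P-IWP2 libraries were above both P-DF libraries, and in 4 they were below. Over all genes tested these shares were 22.5% and 23.4%. SFRP1 was at 80.2 and 97.8 FPKM in P-DF and at 104 and 83.2 FPKM in P-IWP2, and the groups overlapped.

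The largest rises are given among called genes with a mean of at least 1 FPKM in the higher group. CBLN2, a secreted synaptic organizer, was at 0.46 and 0.55 FPKM in P-DF and at 3.86 and 8.53 FPKM in P-IWP2, a log2 fold change of 3.67 ± 0.39 (SE, n = 2, edgeR adjusted p = 0.0048). EFEMP1, a fibulin of the matrix, was at 0.13 and 0.18 FPKM in P-DF and at 0.98 and 2.43 FPKM in P-IWP2. LIN28A, an RNA-binding protein of stem cells, was at 0.06 and 0.20 FPKM in P-DF and at 0.95 and 1.61 FPKM in P-IWP2. ANXA1, a calcium-dependent phospholipid-binding protein, was at 0.71 and 0.85 FPKM in P-DF and at 3.44 and 10.9 FPKM in P-IWP2. In these genes replicate 6 was the higher of the P-IWP2 pair.

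ATP1B4, a β subunit family member of muscle that lies in the inner nuclear membrane, was at 0.88 and 1.04 FPKM in P-DF and at 5.40 and 6.52 FPKM in P-IWP2, with the smallest adjusted p of these rises (log2 fold change 2.68 ± 0.20, SE, n = 2, edgeR adjusted p = 0.0027). S100A10, the annexin A2 partner, was the most abundant of them, at 15.5 and 22.4 FPKM in P-DF and at 64.5 and 162 FPKM in P-IWP2. GDF6, a BMP family ligand, was at 3.03 and 3.96 FPKM in P-DF and at 11 and 30.3 FPKM in P-IWP2. SLC15A2, a peptide transporter, was at 1.40 and 2.47 FPKM in P-DF and at 10.1 and 9.18 FPKM in P-IWP2. ETV4, PIK3AP1, CXCL14 and SLC34A2 complete the 12 largest called rises, with log2 fold changes of 2.77, 2.5, 2.40 and 2.35. CXCL14 was not called without P-DF replicate 3 (edgeR adjusted p = 0.13).

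The largest falls by the same rule were IRX5, IRX3 and IRX2, described above, and 9 further genes. FABP2, a fatty acid binding protein best known from the intestine, was at 4.46 and 3.69 FPKM in P-DF and at 0.89 and 0.40 FPKM in P-IWP2, a log2 fold change of -2.62 ± 0.33 (SE, n = 2, edgeR adjusted p = 0.0086). ITGA9, an integrin subunit, was at 2.83 and 3.51 FPKM in P-DF and at 0.73 and 0.49 FPKM in P-IWP2. FGF7, a growth factor for epithelia, was at 2.84 and 2.64 FPKM in P-DF and at 0.76 and 0.64 FPKM in P-IWP2. SLC27A6, a fatty acid transport protein of the heart, was at 8.56 and 6.82 FPKM in P-DF and at 2.93 and 1.6 FPKM in P-IWP2. In FABP2, ITGA9, FGF7 and SLC27A6 the groups did not overlap, which the rule for these falls required.

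TECRL, a protein of the endoplasmic reticulum in which mutations cause ventricular arrhythmia, was the most abundant of these falls, at 109 and 101 FPKM in P-DF and at 44.5 and 23.6 FPKM in P-IWP2 (log2 fold change -1.59 ± 0.23, SE, n = 2, edgeR adjusted p = 0.013). TRH, the precursor of thyrotropin-releasing hormone, was at 89.0 and 88.6 FPKM in P-DF and at 36.3 and 21.9 FPKM in P-IWP2. TRDN-AS1, which lies antisense to the triadin gene TRDN, was at 4.47 and 4.13 FPKM in P-DF and at 1.35 and 1.04 FPKM in P-IWP2, and its reads cannot be told from those of TRDN if the counting ignored strand. FAM124A fell from 1.22 and 1.52 FPKM in P-DF to 0.50 and 0.19 FPKM in P-IWP2, and COL3A1 is given with the matrix genes.

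Other calls at high expression were picked after their values were seen. COL2A1, type II collagen, was the most abundant rise of all, at 369 and 396 FPKM in P-DF and at 627 and 645 FPKM in P-IWP2. THBS1, thrombospondin 1, was at 36.9 and 32.1 FPKM in P-DF and at 66.9 and 91.1 FPKM in P-IWP2, and CKB, brain creatine kinase, was at 39.9 and 43.3 FPKM in P-DF and at 71.4 and 81.8 FPKM in P-IWP2. NKX2-6, a homeobox factor of the early heart and pharynx, was at 19.1 and 21.0 FPKM in P-DF and at 30.6 and 33.5 FPKM in P-IWP2. In each of these genes both P-IWP2 libraries were above both P-DF libraries, as in all called rises and 22.5% of all genes tested. In the fit without P-DF replicate 3, COL2A1 (edgeR adjusted p = 0.40), CKB (0.13) and NKX2-6 (0.34) were not called, and COL2A1 (0.19) and NKX2-6 (0.12) were not called without P-DF replicate 4.

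Of 11 tested genes of laminin chains, which form proteins of the basement membrane, 2 rose, 1 fell and 8 were not called. Over all genes tested 0.886% rose and 0.671% fell, and the family was picked after its values were seen. LAMA1 was at 9.87 and 11.8 FPKM in P-DF and at 24.7 and 24.9 FPKM in P-IWP2 (log2 fold change 1.24 ± 0.14, SE, n = 2, edgeR adjusted p = 0.0051), and LAMA5 rose from 15.5 and 15.7 FPKM in P-DF to 24.4 and 23.0 FPKM in P-IWP2. LAMA4 was lower, at 21.5 and 20.5 FPKM in P-DF and at 13.4 and 9.5 FPKM in P-IWP2. GPC3, a cell-surface proteoglycan, was at 8.06 and 9.10 FPKM in P-DF and at 18.8 and 19.7 FPKM in P-IWP2. Its relative GPC4 rose from 5.01 and 6.49 FPKM in P-DF to 10.7 and 12.6 FPKM in P-IWP2. When P-DF replicate 3 was removed, LAMA5 (edgeR adjusted p = 0.42), LAMA4 (0.14) and GPC4 (0.12) were not called, and LAMA5 (0.30) and LAMA4 (0.068) were not called without P-DF replicate 4.

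BTG2, an antiproliferative gene that stress induces, was the most abundant fall after FOS, at 137 and 120 FPKM in P-DF and at 65.8 and 41.0 FPKM in P-IWP2. NREP was at 90.2 and 88.4 FPKM in P-DF and at 51.2 and 39.8 FPKM in P-IWP2. AKR1B1, aldose reductase, was at 66.9 and 66.0 FPKM in P-DF and at 40.5 and 36.8 FPKM in P-IWP2. CXCL12, a chemokine, was at 20.2 and 16.6 FPKM in P-DF and at 9.43 and 10.9 FPKM in P-IWP2. CXCL12 was not called in the fit of 11 libraries (edgeR adjusted p = 0.22). MYZAP, a protein of the cardiac intercalated disc, was at 10.7 and 10.4 FPKM in P-DF and at 6.28 and 4.32 FPKM in P-IWP2. LGALS3, galectin-3, was at 14.5 and 15.5 FPKM in P-DF and at 6.89 and 6.28 FPKM in P-IWP2, and was not called with 11 libraries (edgeR adjusted p = 0.086). In all of these the lowest P-DF library was above the highest P-IWP2 library, as in all called falls and 23.4% of all genes tested. Without P-DF replicate 3, NREP (edgeR adjusted p = 0.096), AKR1B1 (0.16), CXCL12 (0.27) and MYZAP (0.14) were not called, and without P-DF replicate 4, NREP (0.055), AKR1B1 (0.12) and MYZAP (0.091) were not.

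The summed level of 26 fibroblast and matrix genes was 458 and 467 FPKM in P-DF and 440 and 451 FPKM in P-IWP2. Of the 18 tested, COL1A1 and COL1A2, the chains of type I collagen, rose (11.1%, against 0.886% of all genes), and COL3A1, COL6A2, LUM and VCAN fell (22.2%, against 0.671%). COL1A1 was at 14.6 and 11.3 FPKM in P-DF and at 23.0 and 25.6 FPKM in P-IWP2, while COL3A1, type III collagen, was at 5.23 and 3.28 FPKM in P-DF and at 0.94 and 1.18 FPKM in P-IWP2. COL6A2 was at 16.1 and 12.5 FPKM in P-DF and at 8.93 and 6.82 FPKM in P-IWP2. VCAN, the proteoglycan versican, was at 128 and 120 FPKM in P-DF and at 81.0 and 66.8 FPKM in P-IWP2. With P-DF replicate 3 left out, COL1A2 (edgeR adjusted p = 0.072), COL6A2 (0.32) and VCAN (0.39) were not called, and without P-DF replicate 4, COL1A1 (0.14) and VCAN (0.22) were not. LUM, lumican, was under 1 FPKM in all 4 libraries, and DCN, the defining fibroblast gene, had 4 counts over the 4 libraries.

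Smooth muscle genes were highest in P-IWP2 replicate 6. Their summed level was 582 and 459 FPKM in P-DF, 642 FPKM in P-IWP2 replicate 5 and 1417 FPKM in replicate 6. Of 13 tested, 12 had a log2 fold change above 0 and the median was 0.85, but DES, desmin, which cardiomyocytes also express, and SMTN, smoothelin, were the 2 that passed the test (15.4%, against 0.886% of all genes called higher). Neither was called without P-DF replicate 3 (edgeR adjusted p = 0.079 for DES and 0.21 for SMTN), without P-DF replicate 4 (0.092 and 0.15) or with library totals (0.054 and 0.063). DES was at 137 and 122 FPKM in P-DF and at 216 and 343 FPKM in P-IWP2, and SMTN was at 2.16 and 2.17 FPKM in P-DF and at 3.28 and 4.29 FPKM in P-IWP2. ACTA2, smooth muscle actin, was at 25.1 and 15.5 FPKM in P-DF and at 28.7 and 207 FPKM in P-IWP2, so that replicate 5 was near P-DF and replicate 6 far above it (edgeR adjusted p = 0.12). ACTA1, skeletal actin, showed the same order, with 134 and 66.0 FPKM in P-DF and 142 and 941 FPKM in P-IWP2. Of 5 tested skeletal muscle genes TNNT1, slow skeletal troponin T, rose, from 4.34 and 2.72 FPKM in P-DF to 7.15 and 8.15 FPKM in P-IWP2, but was not called without P-DF replicate 4 (edgeR adjusted p = 0.25).

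Of 12 tested epicardial and mesothelial genes, LRRN4 and KRT18 rose and KRT19 fell. LRRN4 was at 5.26 and 4.15 FPKM in P-DF and at 9.81 and 12.4 FPKM in P-IWP2. KRT18, a keratin of simple epithelia and early cardiomyocytes, was at 77.7 and 71.2 FPKM in P-DF and at 115 and 173 FPKM in P-IWP2. KRT19 was at 23.6 and 19.3 FPKM in P-DF and at 13.5 and 10.8 FPKM in P-IWP2, and WT1, the defining epicardial factor, was at 0.08 FPKM or less in all 4 libraries. In the fit without P-DF replicate 3, KRT18 (edgeR adjusted p = 0.13) and KRT19 (0.36) were not called, and KRT18 was not called without P-DF replicate 4 (0.14). No gene was called by edgeR among 5 tested endothelial genes (0 with an unadjusted p under 0.05), 4 of liver and endoderm (3) and 3 of neural cells (0), and none of 16 blood genes was high enough to test. Of the 25 liver and endoderm genes, whose summed level was 17.8 and 18.2 FPKM in P-DF and 25.8 and 20.6 FPKM in P-IWP2, APOA1 was the highest. It was at 13.8 and 14.8 FPKM in P-DF and at 19.98 and 16.1 FPKM in P-IWP2. The part of these markers in the other results was not tested.

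Of 5 tested genes of pluripotency and the primitive streak, LIN28A and TDGF1 rose. TDGF1, a co-receptor of NODAL, was at 6.69 and 9.48 FPKM in P-DF and at 24.3 and 25.8 FPKM in P-IWP2 (log2 fold change 1.67 ± 0.17, SE, n = 2, edgeR adjusted p = 0.0044). POU5F1 and NANOG, the defining factors of stem cells, had 4 and 0 counts over the 4 libraries. Of 29 tested genes of growth factor signaling, ETV4, ETV5, IGF2 and FGFR2 rose (13.8%, against 0.886% of all genes) and FGF12 fell (3.45%, against 0.671%). ETV4 and ETV5 are ETS factors that FGF signaling induces. ETV5 was at 1.03 and 1.07 FPKM in P-DF and at 1.88 and 2.64 FPKM in P-IWP2, and IGF2, insulin-like growth factor 2, was at 28.2 and 31.8 FPKM in P-DF and at 53.8 and 60.5 FPKM in P-IWP2. FGFR2, an FGF receptor, was at 1.91 and 2.06 FPKM in P-DF and at 2.92 and 3.58 FPKM in P-IWP2, and FGF12 was at 1.00 and 0.88 FPKM in P-DF and at 0.35 and 0.40 FPKM in P-IWP2. When P-DF replicate 3 was removed, ETV5 (edgeR adjusted p = 0.20), IGF2 (0.14), FGFR2 (0.31) and FGF12 (0.15) were not called, and ETV5 and FGFR2 (0.12 for both) were not called without P-DF replicate 4. In TDGF1, ETV5, IGF2 and FGFR2 both P-IWP2 libraries were above both P-DF libraries, as in all called rises and 22.5% of all genes tested.

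Of 29 tested genes of BMP, TGF-β and Notch signaling, HEY1 rose and HEY2 and LEFTY2 fell. HEY1, a Notch target found in the atria, was at 5.07 and 5.40 FPKM in P-DF and at 8.38 and 12.8 FPKM in P-IWP2, the opposite direction to its relative HEY2. LEFTY2, an inhibitor of NODAL, was at 35.9 and 47.1 FPKM in P-DF and at 23.8 and 16.9 FPKM in P-IWP2. LEFTY2 was not called in the fit of 6 Day 16 libraries (edgeR adjusted p = 0.26) or of 11 libraries (0.18). PRDM16, a regulator of ventricular compaction, was the 1 call among 20 tested genes of the heart fields, with 4.41 and 3.44 FPKM in P-DF and 2.10 and 1.42 FPKM in P-IWP2. STRA6, the receptor for retinol uptake, rose among 11 tested retinoid genes, from 1.28 and 1.32 FPKM in P-DF to 2.80 and 2.36 FPKM in P-IWP2. FOS was the 1 call among 28 tested stress and immediate early genes, with 222 and 171 FPKM in P-DF and 107 and 78.6 FPKM in P-IWP2. Without P-DF replicate 3, HEY1 (edgeR adjusted p = 0.13), PRDM16 (0.13), STRA6 (0.14) and FOS (0.14) were not called, and without P-DF replicate 4, LEFTY2 (0.11) and STRA6 (0.086) were not.

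Few metabolic genes passed the test. No gene was called by edgeR among 29 tested genes of the TCA cycle (median 0.10, with 3 at an unadjusted p under 0.05), 23 of glycolysis (0.15, with 5) and the 13 coding genes of the mitochondrial genome (0.08, with 0). CD36 was the 1 call among 22 tested genes of fatty acid oxidation, whose median was 0.02. Among 30 cell cycle genes 0 were called and the median was 0.36. Of these 30, 12 had an unadjusted p under 0.05, against 2325 of all 16249 genes tested. Directions were mixed: both P-IWP2 libraries were above both P-DF libraries in 5 of the 30 and below in 8. Over all genes tested these shares were 22.5% and 23.4%. GAPDH, a glycolytic enzyme, was at 842 and 897 FPKM in P-DF and at 842 and 857 FPKM in P-IWP2, and MDH1, cytosolic malate dehydrogenase, was at 149 and 147 FPKM in P-DF and at 143 and 155 FPKM in P-IWP2. In GAPDH and MDH1 the groups overlapped. PCNA, the sliding clamp of DNA replication, was at 30.0 and 32.8 FPKM in P-DF and at 33.6 and 28.4 FPKM in P-IWP2. Of 33 HOX genes 3 were tested and 0 were called (0 with an unadjusted p under 0.05).

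The same contrast 4 days earlier, on Day 12, called no gene with edgeR, 173 genes having an unadjusted p under 0.05 in the fit of 4 libraries and 260 when P-IWP2 replicate 5 of that day was left out. Of the 253 genes called on Day 16, 132 (52.2%) differed in the same direction on Day 12, against 48.8% of all genes tested. With that library left out the number was 47 (18.6%, against 49.2% of all genes tested), and the genes that fell on Day 16 then had a median of 0.41 on Day 12 and those that rose a median of -0.18. The Day 12 and Day 16 libraries are separate libraries.

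IRX4 showed how the Day 12 libraries were spread. It was at 61.5 and 43.0 FPKM in P-DF on Day 12, at 0.04 FPKM in the library labelled P-IWP2 replicate 5 and at 68.4 FPKM in replicate 6. CORIN was at 19.1 and 12.3 FPKM in P-DF, 2.11 FPKM in replicate 5 and 23.9 FPKM in replicate 6, the same order. HEY2 was at 8.77 and 5.80 FPKM in P-DF on Day 12 and at 7.73 and 10.01 FPKM in P-IWP2. Without replicate 5, the Day 12 log2 fold changes of IRX3, IRX5 and IRX2 were 0.61, 0.80 and 0.78, where those of Day 16 were -1.87, -2.37 and -1.76.

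The difference between the days was tested as the interaction of IWP2 and day in the 8 passaged libraries. It called 0 of 17999 genes (edgeR, with 992 at an unadjusted p under 0.05), and DESeq2 called 22 (0.122%). Among fits with 1 library left out, the count rose only without replicate 6 of P-IWP2 on Day 12. That fit keeps the library labelled replicate 5, which stood apart from the other passaged libraries, as its only Day 12 P-IWP2 sample. Without the filter on low counts, edgeR called 708 genes (1.88%) in the interaction test. In simulated data this test recovered 0 of 100 genes made to differ 2-fold and 25 of 100 made to differ 4-fold, so that a change limited to 1 day was seldom detectable. A call on Day 16 and none on Day 12 is thus not shown to be a difference between the days.

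**Figure D5:**
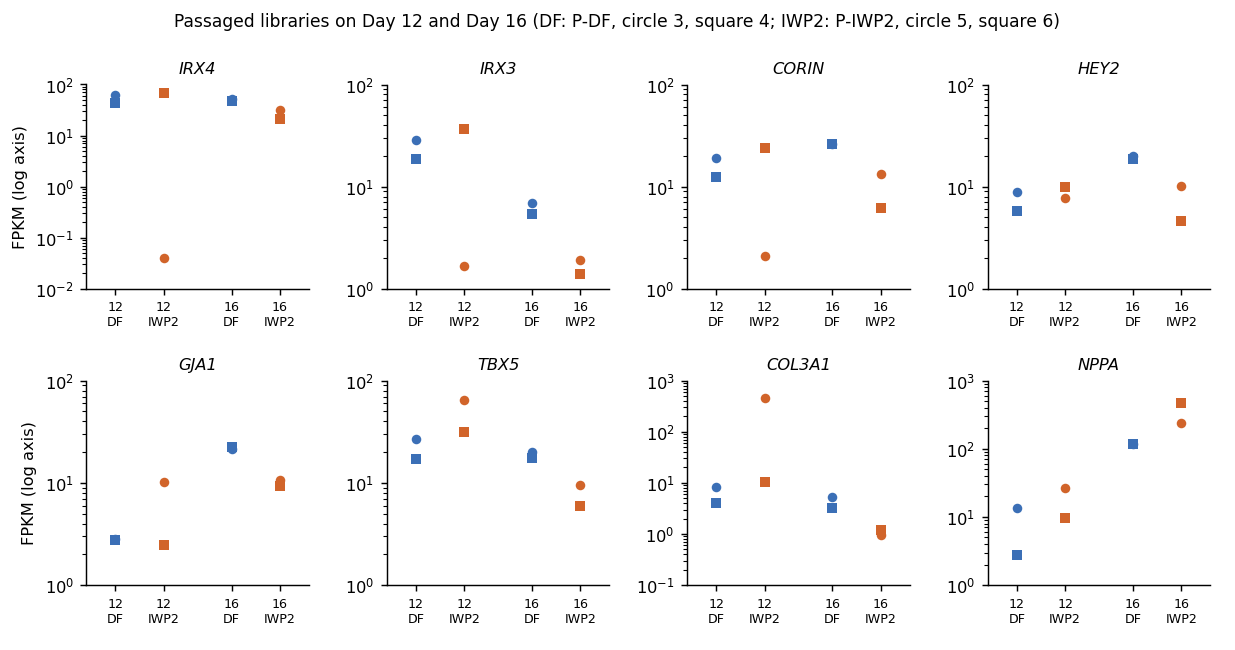
FPKM (log axes) of 8 genes in the passaged libraries on Day 12 and Day 16. Points are single libraries (blue for P-DF and orange for P-IWP2, with circles for replicates 3 and 5 and squares for replicates 4 and 6). On Day 16 each gene separates the groups, as all called genes do. On Day 12 the P-IWP2 circle and square lie far apart in IRX4 (0.04 and 68.4 FPKM), IRX3, CORIN and COL3A1.

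In static culture with the same inhibitor, NP-IWP2, no test was made against the passaged groups, and the Day 16 levels are given as a description. IRX3 was at 9.07 and 11.8 FPKM in NP-IWP2, against 6.98 and 5.41 FPKM in P-DF and 1.9 and 1.39 FPKM in P-IWP2. GJA1 was at 64.6 and 62.2 FPKM in NP-IWP2, above both passaged groups, and MYL2 was at 38.6 and 4.52 FPKM, below both. S100A10 was at 181 and 159 FPKM in NP-IWP2, at the level of P-IWP2 replicate 6 (162 FPKM). COL3A1 was at 679 and 670 FPKM in NP-IWP2, where the passaged libraries held at most 5.23 FPKM. These libraries also carried more RNA of fibroblast and matrix genes, with summed levels of 2897 and 2838 FPKM, and of liver and endoderm genes, with 1151 and 959 FPKM.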

How the data were processed

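RNA-seq of H1 cells was analysed from 1 table. Per the submitters' processing notes, the authors trimmed reads with cutadapt 1.9.1, aligned them with HISAT2 2.0.1 to hg38 and counted them per gene with HTSeq 0.6.1. The labels also name a long-read library kit, and the use of strand is not given in the sources used here. The deposited values are raw read counts of 61806 genes, 20417 of them without a symbol, and the authors' FPKM, which equal the count divided by exon length and library total within 0.005.

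Counts of the 4 Day 16 libraries (16101298 to 19176239, so that 3 counts, the limit a count of 0 allows, are 0.156 to 0.186 CPM, covering counting error only) were tested with edgeR 4.0.16 in R 4.3.3, with filterByExpr, TMM and the quasi-likelihood test at a Benjamini-Hochberg adjusted p of 0.05. Fold changes are from this fit, and FPKM give levels. Alternatives were library totals, DESeq2 1.42.0 and its size factors, no filter, 6, 11 or 12 libraries, limma 3.58.1 on log2(FPKM + 1) and leaving out each library. The Day 12 fits were added after seeing the data. In simulated data of 16249 genes edgeR recovered 63 of 100 genes changed 2-fold and 88 of 100 changed 4-fold, with 20 false calls. No 2 libraries held identical counts.

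The samples compared, the 30 gene lists and the tests were chosen with earlier results of these data known, so list counts are descriptions. Named genes are the 12 largest rises and 12 largest falls that were called, had a symbol, a mean of at least 1 FPKM in the higher group and no overlap, a list of key genes of the study and of WNT signaling, and up to 4 called genes of each list (otherwise its 2 most abundant). Genes beyond these (IRX1 and neighbours of the IRX genes, CRNDE, MYCN, MYCNOS, S100A11, S100A16, CDKN1A, zinc finger genes, ACTA1, ACTA2, MPPED2 and LBH, and further calls of high expression) were chosen after their values were seen. Promoters were matched by symbol.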

Additional observations from a re-analysis of the deposited data

Results flagged for a closer look

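12 of the 58 named genes that were called on Day 16 were ordered the opposite way on Day 12. In these, all P-IWP2 libraries were on 1 side of all P-DF libraries on each day. No overlap on Day 16 holds for every called gene and for 46.0% of all genes tested. The share of all genes with such a reversal was not counted. The reversed order itself was not tested, and the test of the difference between the days called 0 genes. The Day 12 fold changes rest in part on the library labelled P-IWP2 replicate 5, and values without it follow.

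Of the genes lower in P-IWP2 on Day 16, the Day 12 log2 fold change of P-IWP2 over P-DF was 5.08 for COL3A1, 2.61 for CACNA1G, 1.43 for MYOM2, 1.22 for TRH, 1.14 for FZD1, 1.13 for ITGA9, 1.01 for TBX5, 0.98 for TECRL, 0.86 for FAM124A and 0.68 for CCND1. Of the genes higher on Day 16, it was -1.43 for TDGF1 and -0.48 for KRT18. TBX5 shows the order: 26.7 and 16.98 FPKM in P-DF against 64.2 and 31.5 FPKM in P-IWP2 on Day 12, and 20.2 and 17.7 FPKM against 9.45 and 5.87 FPKM on Day 16.

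With that Day 12 library left out, the log2 fold change was 0.77 for COL3A1, 1.08 for CACNA1G, 1.29 for MYOM2, 0.48 for TRH, 0.12 for FZD1, 0.95 for ITGA9, 0.52 for TBX5, 0.69 for TECRL, 1.43 for FAM124A, 0.71 for CCND1, -0.45 for TDGF1 and -0.18 for KRT18.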

How the results depend on the processing

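The count of 253 genes became 138 with library totals, 458 with DESeq2, 1144 without the filter on low counts, 510 with 11 libraries, and 0 with all 12 libraries and with limma on log2(FPKM + 1). Leaving out 1 library gave 77 (P-DF replicate 3) to 3672 (P-IWP2 replicate 5). All 253 kept their direction. The direction was largely fixed in advance, here and for the named genes below, since the groups of called genes did not overlap. Of the 253, 138 were also called with library totals, 245 with DESeq2, 234 with 6 Day 16 libraries and 219 with 11. The count over all gene lists, 43, became 20 with library totals, 117 without the filter, 0 with 12 libraries and with limma, and 18 to 209 with 1 library left out. The 7 ventricular genes became 4 with library totals and 0 with 12 libraries and with limma, and 4 to 8 with 1 library left out, and their median stayed between -1.09 and -0.73. The median of the WNT targets was -0.26 with limma and -0.60 to -0.29 with 1 library left out. For the interaction, DESeq2 called 22 genes and edgeR without the filter 708, and leaving out 1 library gave 0 to 3084.

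Of 58 called genes named, 696 of 696 fits kept the direction and 504 kept the call, with 23 of the 58 not called without P-DF replicate 3, 15 without P-DF replicate 4 and 0 without either P-IWP2 library. Among genes that were not called, the following changed sign: NKX2-5 (-0.023 with library totals and with limma), MYH7 (-0.00032 with limma), PORCN (-0.025 with library totals, -0.016 with limma), PCNA (-0.020 and -0.022), GAPDH (-0.033 with both) and HOXB2 (0.00092 with 11 libraries). With 1 library left out, the ranges were -0.15 to 0.27 for TNNT2, -0.015 to 0.058 for NKX2-5, -0.031 to 0.12 for MYH7, -0.016 to 0.050 for PORCN, -0.033 to 0.27 for SFRP1, -0.26 to 0.77 for ACTC1, -0.35 to 0.12 for RAMP2, -0.17 to 0.84 for TUBB3, -0.051 to 0.093 for PCNA, -0.062 to 0.16 for MDH1, -0.055 to 0.077 for GAPDH, -0.025 to 0.16 for TPI1, -0.17 to 0.039 for MT-CO1, -0.024 to 0.16 for MT-CO3, -0.20 to 0.17 for HOXB2 and -0.44 to 0.074 for HOXB3. Where these values moved, the cause was not tested, except that a left-out library leaves 1 sample in its group, assumed to vary like the other group. Without a P-IWP2 library the other group is the closer P-DF pair, so keeping a call there was no separate test.

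No paired analysis was possible because the groups compared on Day 16 share no replicate number. For the interaction, a fit with the replicate block called 0 genes (1090 had an unadjusted p under 0.05). Equal numbers on Day 12 and Day 16 did not deviate together, with correlations of 0.10, -0.013 and -0.032 in NP-IWP2, P-DF and P-IWP2. With library totals the median of all genes shifted to -0.041. With 2 libraries per group, 37 of 100 simulated 2-fold changes were missed.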

Other observations

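Of 7 tested S100A genes of chromosome 1, which encode calcium-binding proteins, S100A10, S100A11 and S100A16 were called higher in P-IWP2 and 4 were not called. Over all genes tested 0.886% were called higher, and the family was picked after its values were seen. S100A11 was at 3.06 and 3.08 FPKM in P-DF and at 11.3 and 16.2 FPKM in P-IWP2, and S100A16 was at 3.25 and 3.43 FPKM in P-DF and at 6.80 and 7.24 FPKM in P-IWP2. S100A16 was not called without P-DF replicate 3 (edgeR adjusted p = 0.19) or replicate 4 (0.11). MYCNOS, the antisense gene of MYCN, was called lower, as MYCN was, with 0.91 and 0.89 FPKM in P-DF and 0.33 and 0.28 FPKM in P-IWP2. Their reads cannot be told apart where they overlap if the counting ignored strand. MYCNOS was not called without P-DF replicate 3 (edgeR adjusted p = 0.19) or replicate 4 (0.14). CDKN1A, which encodes the cell cycle inhibitor p21, was higher, with 34.9 and 43.9 FPKM in P-DF and 68.7 and 78.6 FPKM in P-IWP2. CDKN1A was not called without P-DF replicate 3, nor in the fit of 11 libraries (edgeR adjusted p = 0.15).

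On chromosome 19 (hg38), 9 tested genes between 52702813 and 53037898, from ZNF611 to ZNF702P, had a log2 fold change above 0 (against 8166 of all 16249 genes tested), with a median of 0.93. ZNF611, ZNF468 and ZNF702P were called higher (33.3%, against 0.886% of all genes). The ends of this window are genes that rose and were chosen after the values were seen, so its direction is in part fixed by that choice. Without P-DF replicate 3, ZNF611 (edgeR adjusted p = 0.13) and ZNF702P (0.18) were not called, and ZNF702P was not called without P-DF replicate 4 (0.068). ZNF468 was at 3.72 and 3.87 FPKM in P-DF and at 7.71 and 11.2 FPKM in P-IWP2. The 14 tested genes on the lower side had a median of -0.02 and the 8 on the upper side one of -0.12, and 0 of these were called. These zinc finger genes resemble each other in sequence, so reads may be shared between them. On Day 12, without the library labelled P-IWP2 replicate 5, the median of the 9 was -0.23.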
